A study of Mus musculus with 9 samples.

Results

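Thrombospondins are large secreted glycoproteins that bind cells and matrix. Thbs1 and Thbs2 form trimers, carry the type 1 repeats through which they bind the scavenger receptor CD36, and restrain the growth of blood vessels. Thbs3 and Thbs4, like the related Comp, form pentamers and lack those repeats. CD36 also takes up long-chain fatty acids in the heart's capillary endothelium. CD47 binds the carboxyl-terminal end of thrombospondin 1, which restrains nitric oxide signaling in endothelial cells, and it is also the "don't eat me" ligand of SIRPα on phagocytes.

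The 6 genes described here are the thrombospondins Thbs1, Thbs2, Thbs3 and Thbs4 and the receptors Cd36 and Cd47. They were taken by symbol from a table of 55487 genes, and 3 of the 6, Thbs1, Thbs3 and Cd47, passed the filter on low counts, as did 16955 genes in all. The libraries are poly-A RNA-seq of MCEC, a mouse cardiac endothelial cell line. There are 3 each from wild-type cells (WT), from a knockdown of Zbtb46 (KD) and from its overexpression (OE). Zbtb46 is a zinc finger transcription factor with a BTB domain. The labels give no age, agent or vector, and they do not say how the knockdown and overexpression were made or whether a line is 1 clone. They also do not say whether libraries came from separate cultures, so the p-values measure the spread between these samples, which may be technical.

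Total counts ran from 39491828 to 55745849 per library. Levels are given as CPM, the count scaled to the TMM-adjusted size of its library, as mean ± SD with n = 3, and a change is called at an adjusted p under 0.05 in edgeR's quasi-likelihood test. Zbtb46 itself stood at 13.6 ± 0.622 CPM in WT, 11.2 ± 0.536 in KD and 191 ± 2.67 in OE, so the knockdown libraries kept most of the transcript. Ribosomal RNA took 7.44% to 17.3% of the counts in WT, 9.55% to 11.96% in KD and 14.4% to 18.2% in OE. Of 12 endothelial markers, 7 were below 1 CPM in every library, among them Pecam1, Cdh5, Erg, Cldn5 and Vwf, while Eng stood at 124 CPM in WT. Of 9 fibroblast and mural markers, 6 averaged at least 1 CPM, led by Col1a1 at 5260 CPM in WT. The leukocyte marker Ptprc, platelet markers Pf4 and Gp9, adipocyte marker Adipoq and cardiomyocyte marker Myh6 had at most 3 counts in each library. Some other members of these lists were higher. In WT, Itga2b (platelet) stood at 9.82 CPM, Cd68 (leukocyte) at 3.76 and Tnnt2 (cardiomyocyte) at 0.59. Tnnt2 had 1.11 CPM in OE and was called higher there. Of 4 epithelial markers, Krt8 had 2.36 CPM in WT and the other 3 were below 1 CPM in every library.

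Thbs1, Thbs3 and Cd47 were expressed in every library, and Thbs2, Thbs4 and Cd36 were at or near 0. The upstream sequence of the latter 3 is shown beside that of Thbs3, the expressed member whose window can be printed, so that expressed and near-silent members can be read side by side. Each line gives the 250 bases before the RefSeq start on GRCm38.p6, 5′ to 3′ on the gene's strand, with CG dinucleotides in capitals. The Thbs3 window lies inside the annotated extent of another gene, Mtx1, which runs from 89209081 to 89227088 on the opposite strand, and overlaps no annotated exon. The Cd36 window lies inside the annotated extent of its gene, which runs from 17781690 to 17888801 and has 6 annotated transcripts.
Thbs3 (chr3:89214930-89215179, plus strand): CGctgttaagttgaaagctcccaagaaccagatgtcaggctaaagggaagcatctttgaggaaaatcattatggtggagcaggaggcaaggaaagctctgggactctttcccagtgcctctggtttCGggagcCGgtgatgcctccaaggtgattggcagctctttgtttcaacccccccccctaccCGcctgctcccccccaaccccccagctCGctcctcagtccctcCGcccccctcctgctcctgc
Thbs2 (chr17:14694263-14694512, minus strand): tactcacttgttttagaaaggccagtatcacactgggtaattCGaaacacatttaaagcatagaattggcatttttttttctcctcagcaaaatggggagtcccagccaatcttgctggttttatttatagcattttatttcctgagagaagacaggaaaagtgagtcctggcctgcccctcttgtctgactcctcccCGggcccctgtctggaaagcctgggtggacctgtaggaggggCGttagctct
Thbs4 (chr13:92794819-92795068, minus strand): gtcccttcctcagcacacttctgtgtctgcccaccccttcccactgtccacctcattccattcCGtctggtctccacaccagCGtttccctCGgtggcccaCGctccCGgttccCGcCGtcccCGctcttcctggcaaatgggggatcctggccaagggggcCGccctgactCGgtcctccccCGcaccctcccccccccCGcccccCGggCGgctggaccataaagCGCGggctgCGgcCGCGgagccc
Cd36 (chr5:17835897-17836146, minus strand): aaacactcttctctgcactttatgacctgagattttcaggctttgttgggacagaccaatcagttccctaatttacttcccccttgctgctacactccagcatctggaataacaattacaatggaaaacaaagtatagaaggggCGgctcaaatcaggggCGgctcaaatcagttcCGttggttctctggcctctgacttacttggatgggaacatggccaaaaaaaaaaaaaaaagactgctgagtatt

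Among 32841 such windows in the RefSeq table the median was 6 CG dinucleotides, with quartiles at 2 and 16. Thbs3 had 6, Thbs2 and Cd36 had 3 each, and Thbs4 had 19, more than 80.3% of windows. The windows of the 2 listed Cd47 starts had 30 and 31 CG dinucleotides, more than 94.1% and 94.8% of windows. They lie inside the annotated extent of Cd47, overlap annotated exons and are not printed. The genes near 0 therefore included a window above the upper quartile (Thbs4) and 2 between the lower quartile and the median (Thbs2 and Cd36). The letters TATAAA, on either strand, stood in 12.4% of all windows and among these genes only in that of Thbs2, with 1 match. CCAAT stood in 33.9% of windows, with 2 matches at Thbs2 and 1 each at Thbs3 and Cd36. GGGCGG stood in 32.7%, with 3 matches at Thbs4, 2 at Cd36, 1 at Thbs3 and 2 in each window of Cd47. No 2 matches shared bases. For Thbs1 the table gave no window.

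Thbs1, the main thrombospondin of this line, fell in OE and was at the same mean level in KD as in WT. The gene (ENSMUSG00000040152) lies on chromosome 2 from 118111876 to 118127133 on the plus strand of GRCm38. Its levels were 111.8, 136.8 and 134.7 CPM in the WT libraries, from 4244 to 8142 counts. The KD libraries stood at 122.9, 131.5 and 129.1 CPM and the OE libraries at 84.68, 87.57 and 90.88 CPM. All OE values thus lay below all WT and KD values, while the KD values fell inside the WT range. In OE, Thbs1 fell by 31.4%, from 127.8 ± 13.8 to 87.7 ± 3.11 CPM (log2 fold change -0.54, SE 0.098, edgeR adjusted p 1.81e-06). In this comparison 36.4% of the genes tested were called and 19.5% were called lower, and 20.3% changed by more than Thbs1 did. Between OE and KD the log2 difference was again -0.54 (SE 0.042, edgeR adjusted p 1.21e-06), in a comparison where 41.5% of genes were called and 22.1% were called lower. In KD against WT it was -0.00094 (SE 0.098, edgeR adjusted p 0.995), where 21.4% of genes were called. In bulk RNA, fewer cells expressing Thbs1 and less Thbs1 RNA per cell cannot be told apart.

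The fall of Thbs1 in OE was accompanied by lower fibroblast and mural markers. The 9 markers of that list summed to 8100 to 8970 CPM in WT, 8040 to 8170 CPM in KD and 5080 to 5190 CPM in OE. Most of the sum was Col1a1, at 5260 CPM in WT and 4030 in OE, and Col3a1, at 3140 and 1050 CPM. Of the 7 tested, 6 were called lower in OE against WT, where 19.5% of all genes were called lower. In KD against WT 2 were called lower, where 10.4% of all genes were. Lum in this list had at most 3 counts in any library, and Tagln and Rgs5 were below 1 CPM throughout. The summed endothelial markers were also lower, at 87.0 to 94.3 CPM in OE against 129.0 to 143.0 CPM in WT. Most of this sum was Eng, at 84.9 CPM in OE and 124 CPM in WT. Of 5 endothelial markers tested, 4 were called lower in OE and 3 in KD, beside the same shares of all genes. The part of either marker list in the Thbs1 result was not tested. With ribosomal RNA features removed, the OE change of Thbs1 was -0.55. The 126 tested genes of its 20 Mb window had a median log2 change of 0.070 in OE. An annotated antisense lincRNA inside the gene, Gm29233, shares 208 exon bases with it and had 0 counts in all 9 libraries.

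**Figure D1:**
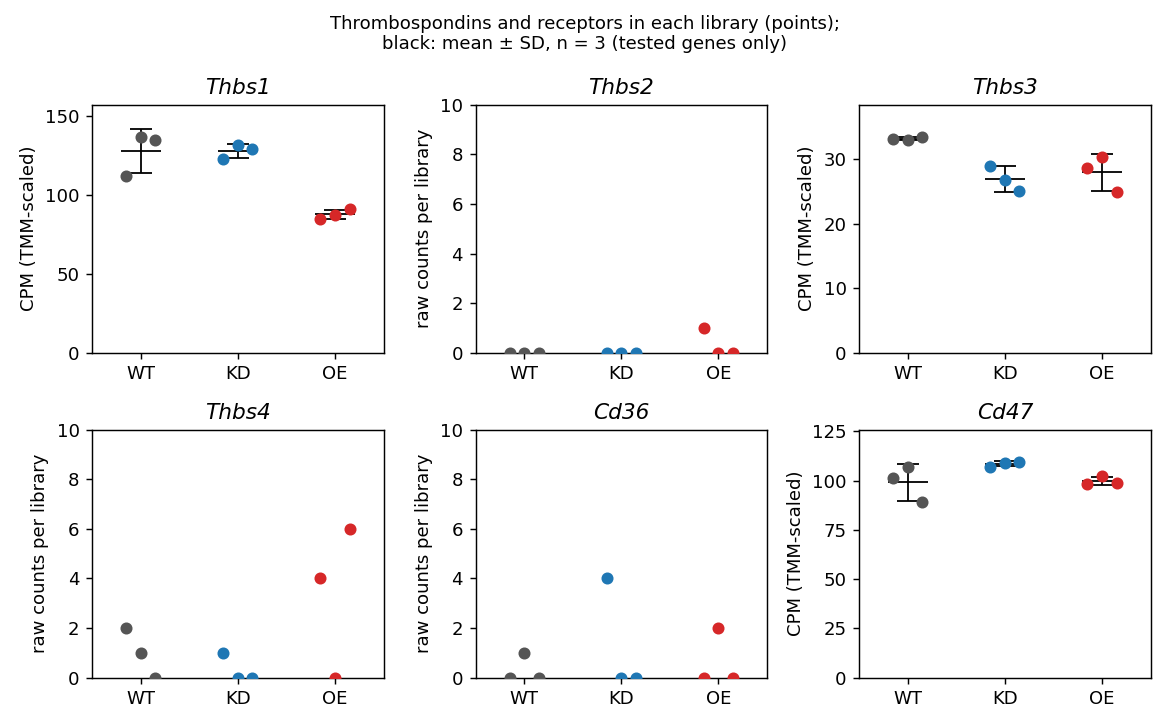
Levels of the 6 genes in each of the 9 libraries, by group: TMM-scaled CPM for Thbs1, Thbs3 and Cd47, with the mean ± SD (n = 3) in black, and raw counts per library for Thbs2, Thbs4 and Cd36. The OE points of Thbs1 (84.68 to 90.88 CPM) lie below all others, the WT points of Thbs3 lie above all others, and the 3 remaining genes stay at 0 to 6 counts.

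Thbs3, a pentameric thrombospondin of bone and other connective tissue, was lower than WT in both modified lines. It is ENSMUSG00000028047, on chromosome 3 from 89215180 to 89226837 on the plus strand. The WT libraries were close together at 33.18, 32.9 and 33.43 CPM. KD libraries had 28.97, 26.71 and 25.04 CPM, and OE libraries 28.57, 30.39 and 24.88 CPM. No KD or OE library reached the lowest WT value, and the KD and OE ranges overlapped each other. Groups separated downward from WT in this way for 17.0% of genes in KD and 23.5% in OE. Thbs3 fell by 18.9% in KD (log2 fold change -0.30, SE 0.061, edgeR adjusted p 0.00483), where 10.4% of genes were called lower. It fell by 15.7% in OE (-0.25, SE 0.085, edgeR adjusted p 0.0109), where 19.5% of genes were called lower. Changes larger than that of Thbs3 were seen for 27.9% of the genes tested in KD and 46.1% in OE. The OE call was lost without OE replicate 3, the lowest OE library (-0.18, edgeR adjusted p 0.0731). OE and KD differed by 0.055 (SE 0.10, edgeR adjusted p 0.598), with no difference detectable at this spread. Both comparisons use the same WT libraries, which for Thbs3 had an SD of only 0.265 CPM.

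Thbs3 lies inside the annotated extent of Mtx1, a mitochondrial import gene on the opposite strand, with which it shares 318 exon bases. Use of strand in counting is not given in the sources used here, so reads over these bases may have gone to either gene. Mtx1 had 37.5 ± 2.53 CPM in WT, 35.1 ± 1.43 in KD and 42.4 ± 1.38 in OE. Its change in KD was -0.095 (edgeR adjusted p 0.311), and in OE it rose by 0.18 on the log2 scale (edgeR adjusted p 0.0247). Mtx1 and Thbs3 thus had opposite signs in OE and the same sign in KD, where the change of Mtx1 was not called. The part of shared reads was not tested.

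**Figure D2:**
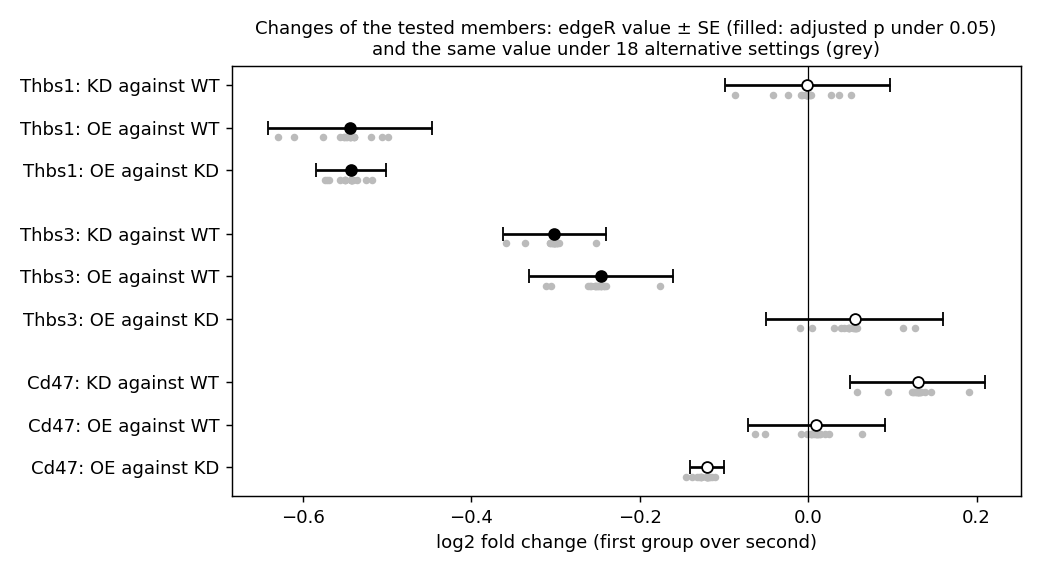
Log2 fold changes of Thbs1, Thbs3 and Cd47 in the 3 comparisons, with bars of ± 1 SE, filled where the edgeR adjusted p was under 0.05, and in grey the value under each of 18 alternative settings. The OE changes of Thbs1 lie between -0.63 and -0.499 under these settings, and the Cd47 values stay within 0.2 of 0.

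Cd47, the membrane receptor for the thrombospondin carboxyl terminus, changed little. It is ENSMUSG00000055447, on chromosome 16 from 49800533 to 49915010 on the plus strand, with 10 annotated transcripts that gene counts cannot separate. The WT libraries stood at 101.4, 107.0 and 88.97 CPM, the KD libraries at 107.1, 108.9 and 109.5 CPM and the OE libraries at 98.42, 102.3 and 98.79 CPM. Every KD value lay above every WT and OE value, although the lowest KD library exceeded the highest WT library by a small margin. Groups separated upward in this way for 17.6% of genes in KD against WT, and downward for 28.2% in OE against KD. The KD difference was 0.13 (SE 0.080, edgeR adjusted p 0.0973) and did not pass; without WT replicate 2 it was 0.19 and passed (edgeR adjusted p 0.00438), and without WT replicate 3 it was 0.058 (edgeR adjusted p 0.407). In OE against KD the difference was -0.12 (SE 0.020, edgeR adjusted p 0.0831), and it passed without WT replicate 2 (-0.13, edgeR adjusted p 0.0183) or WT replicate 3 (-0.12, edgeR adjusted p 0.0114), in a fit of those 2 groups alone (edgeR adjusted p 0.00114), and with no filter beyond 1 count (edgeR adjusted p 0.0462). The 72 tested genes of its 20 Mb window had a median of 0.115 in KD against WT and -0.088 in OE against KD, close to the values of Cd47. OE and WT differed by 0.0097 (SE 0.081, edgeR adjusted p 0.915).

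Of the 3 tested members, 1 was called in KD against WT (Thbs3, lower), where 10.4% of all genes were called lower and 11.0% higher. In OE against WT 2 were called (Thbs1 and Thbs3, both lower), where 19.5% of all genes were called lower and 16.9% higher. In OE against KD 1 was called (Thbs1, lower), where 22.1% were called lower and 19.4% higher. The groups did not overlap for 2 members in each comparison. In KD against WT these were Thbs3 (lower) and Cd47 (higher), beside 34.7% of all genes, 17.6% higher and 17.0% lower. In OE against WT they were Thbs1 and Thbs3, both lower, beside 45.1% of all genes, 21.7% higher and 23.5% lower. In OE against KD they were Thbs1 and Cd47, both lower, beside 55.4% of all genes, 27.2% higher and 28.2% lower.

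Thbs2, Thbs4 and Cd36 were not tested, because too few counts were present in any group. Thbs2, the other trimeric thrombospondin, had 1 count in OE replicate 1 and 0 in the other 8 libraries. Cd36 had 0, 1 and 0 counts in WT, 4, 0 and 0 in KD and 0, 2 and 0 in OE. Thbs4, which is known from tendon, muscle and injured heart, had 2, 1 and 0 counts in WT, 1, 0 and 0 in KD and 4, 0 and 6 in OE. Of the 14 Thbs4 counts 10 were in OE, from 2 of its libraries. A count of 0 allows up to 3 counts, which corresponds to 0.0504 to 0.0791 CPM depending on the library and covers counting error only. With every gene of at least 1 count tested, the smallest edgeR adjusted p of these 3 genes in any comparison was 0.342, for Thbs4 in OE against KD. Comp, the fifth thrombospondin, had 8, 16 and 16 counts in WT, 25, 3 and 7 in KD and 43, 3 and 2 in OE. Its higher values came from 1 library of each modified line, and no comparison passed (edgeR adjusted p 0.742 to 0.924).

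Per kilobase of annotated exon (RPKM), the order of levels in WT was Thbs1 at 21.04 ± 2.28, Cd47 at 15.8 ± 1.47 and Thbs3 at 6.88 ± 0.055 RPKM. Neighbours in this order did not overlap: Thbs1 ran from 18.4 to 22.5 and Cd47 from 14.2 to 17.1 RPKM. Thbs1 exceeded 85.6% of the genes tested in WT on this scale, Cd47 80.7% and Thbs3 63.6%. KD kept the order, with Thbs1 at 21.1 ± 0.736, Cd47 at 17.3 ± 0.196 and Thbs3 at 5.58 ± 0.409 RPKM. In OE it was Cd47 at 15.9 ± 0.341, Thbs1 at 14.4 ± 0.511 and Thbs3 at 5.79 ± 0.582 RPKM. The exon length used counts every annotated exon, so the order of Thbs1 and Cd47, which are close in level, depends on it.

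Ratios within a library need no scaling between libraries. The RPKM ratio of Thbs1 to Cd47 came to 1.14, 1.32 and 1.56 in WT, 1.19, 1.25 and 1.22 in KD and 0.889, 0.885 and 0.951 in OE. All OE ratios were below those of every WT and KD library. Thbs1 to Thbs3 averaged 3.06 ± 0.335 in WT, 3.79 ± 0.377 in KD and 2.51 ± 0.337 in OE, with KD from 3.37 to 4.09 above WT, which ran from 2.68 to 3.30. The OE ratios, from 2.29 to 2.90, overlapped those of WT. Cd47 to Thbs3 averaged 2.30 ± 0.232 in WT, 3.11 ± 0.260 in KD and 2.76 ± 0.252 in OE, and both modified lines lay above WT. The 3 ratios restate the levels of the same 3 genes, and each follows from the other 2. The share of other gene pairs whose ratios separate in this way was not computed. No test is given for these ratios: with 3 libraries a group, the smallest two-sided p of an exact permutation test is 0.1. Of the summed RPKM of the 4 thrombospondins, Thbs1 made up 75.3% in WT, 79.0% in KD and 71.3% in OE, and nearly all the rest was Thbs3.

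**Figure D3:**
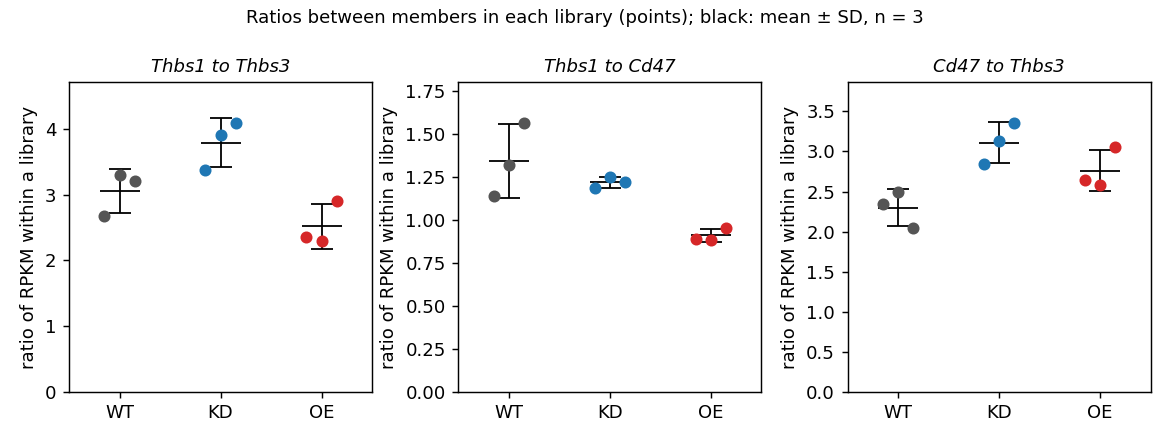
Ratios of RPKM between Thbs1, Thbs3 and Cd47 within each of the 9 libraries, by group, with the mean ± SD (n = 3) in black. Thbs1 to Cd47 lies below 1 in the OE libraries (0.885 to 0.951) and above 1 in all WT and KD libraries.

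The genes whose levels followed each member most closely were found by the Pearson correlation of log2 CPM over the 9 libraries among 9940 genes; the libraries share 3 groups and their depths, and no p is given. For Thbs1 they were Sema3e, a semaphorin (r = 0.988), Dock1, an activator of Rac (0.984), and Peg3, an imprinted zinc finger gene (0.979). Sema3e had 149 CPM in WT, 147 in KD and 105 in OE, and Peg3 had 651, 651 and 334 CPM. For Thbs3 they were Smpd2 (0.951), Zmym3 (0.947) and Rab13 (0.937), and Smpd2 had 13.4, 9.62 and 10.3 CPM in WT, KD and OE. For Cd47 they were Tiparp (0.987), Zbtb6 (0.984) and Fmr1 (0.978), and Tiparp had 59.0, 70.2 and 60.5 CPM.

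Other molecules that bind thrombospondins or the 2 receptors moved in both directions. Of 20 such partners 16 were tested. In KD 5 rose and 3 fell, where 11.0% of all genes were called higher and 10.4% lower, with a list median of -0.014 beside -0.0022 over all genes. In OE 6 rose and 3 fell, where 16.9% of all genes were called higher and 19.5% lower, with a median of 0.011 beside 0.0020. Neither median kept its sign: without WT replicate 1 they were -0.108 and -0.026, and without WT replicate 3 they were 0.041 and 0.047. Sirpa, which encodes the receptor that reads CD47 on phagocytes, fell in KD from 16.6 ± 0.897 to 7.49 ± 0.976 CPM (log2 fold change -1.15, SE 0.11, edgeR adjusted p 8.52e-09) and stood at 30.0 ± 0.718 CPM in OE. OE and KD differed by 1.999 in Sirpa (SE 0.11, edgeR adjusted p 1.37e-13). Lrp8 and Vldlr, lipoprotein receptors that bind thrombospondin 1, rose in OE from 13.1 ± 1.16 to 36.9 ± 1.16 CPM (1.49, SE 0.077, edgeR adjusted p 3.64e-12) and from 6.36 ± 0.462 to 17.0 ± 0.546 CPM (1.43, SE 0.065, edgeR adjusted p 1.80e-10). In KD they stood at 14.0 ± 1.07 and 6.29 ± 0.362 CPM, near WT. Calr, which encodes calreticulin, a partner of Lrp1 in the cell surface complex for thrombospondin 1, rose from 1437 ± 36.5 CPM in WT to 2233 ± 58.9 in KD (0.64, SE 0.031, edgeR adjusted p 1.23e-10) and to 1922 ± 50.03 in OE (0.42, SE 0.030, edgeR adjusted p 1.50e-08). The number of partners that rose in KD was 3 without WT replicate 3, 2 without any 1 of the KD replicates and 2 with library totals alone, and it was 3 in a fit of the 2 groups. The number that fell in OE was 5 without WT replicate 1.

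Thrombospondin 1 can activate latent TGF-β, and genes of this system were mostly lower in OE. Of 14 tested, 10 fell and 2 rose in OE, with a list median of -0.365, where 19.5% of all genes were called lower. In KD 3 fell and 2 rose, where 10.4% of all genes were called lower and 11.0% higher, with a median of -0.063 that was -0.038 without WT replicate 2 and -0.099 with library totals alone. Tgfbr2, the ligand-binding receptor, had 264 ± 13.7 CPM in WT, 372 ± 12.0 in KD (log2 fold change 0.49, SE 0.051, edgeR adjusted p 7.70e-08) and 114 ± 3.42 in OE (-1.21, SE 0.050, edgeR adjusted p 2.21e-14). Tgfb2, a ligand, fell in OE from 106 ± 7.13 to 52.8 ± 1.96 CPM (-1.01, SE 0.065, edgeR adjusted p 2.42e-12), and stood at 117 ± 1.49 CPM in KD. Tgfb3, another ligand, fell in KD from 68.7 ± 4.36 to 54.8 ± 0.809 CPM (-0.33, SE 0.054, edgeR adjusted p 0.000127) and in OE to 35.8 ± 0.796 CPM (-0.94, SE 0.055, edgeR adjusted p 1.82e-11). Leaving out libraries moved the number that rose in KD: it was 4 without WT replicate 2 and 1 without WT replicate 1, WT replicate 3 or KD replicate 3, as with library totals alone. With at least 10 counts required in every library, 1 gene rose in OE. The lower fibroblast and mural markers in OE apply here too, and their part was not tested. Eng, among the genes of this list that fell in KD and in OE, is also in the endothelial marker list.

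Proteins that share the type 1 repeat of thrombospondin 1 gave 25 tested genes. In OE 10 fell and 3 rose, where 19.5% of all genes were called lower and 16.9% higher, with a list median of -0.104 beside 0.0020 over all genes and of -0.167 with library totals alone. In KD 5 fell and 6 rose, where 10.4% of all genes were called lower and 11.0% higher, with a median of -0.212 beside -0.0022. The KD median was -0.14 without WT replicate 2 and -0.079 with no filter beyond 1 count. Ccn2, named after its values were seen, is counted both here and in the latent TGF-β list, among the rises in KD and the falls in OE. The lower fibroblast, mural and endothelial markers in OE stand beside these OE falls as well, and their part was not tested. Spon2, a secreted spondin, had 39.5 ± 1.28 CPM in WT, 25.3 ± 0.598 in KD (log2 fold change -0.64, SE 0.033, edgeR adjusted p 8.94e-07) and 5.32 ± 0.611 in OE (-2.89, SE 0.096, edgeR adjusted p 1.55e-16). Adamts2, a procollagen protease, fell in KD from 9.83 ± 0.148 to 2.87 ± 0.796 CPM (-1.76, SE 0.25, edgeR adjusted p 2.65e-08) and had 22.9 ± 1.496 CPM in OE. OE exceeded KD by 2.98 in Adamts2 (SE 0.26, edgeR adjusted p 9.51e-13). Adamts7, a metalloprotease that cleaves matrix, fell in OE from 59.4 ± 2.14 to 33.4 ± 1.19 CPM (-0.83, SE 0.042, edgeR adjusted p 9.52e-11) and stood at 54.1 ± 1.44 CPM in KD. Leaving out KD replicate 2, KD replicate 3 or WT replicate 1 gave 3 that rose in KD, and library totals alone gave 2.

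Most listed genes of the fatty acid uptake in which CD36 takes part passed the filter on low counts, although Cd36 did not. Gpihbp1, Pparg, Meox2 and Tcf15 did not pass it either. Fabp3 and Fabp4 were tested but low, at 0.146 and 0.350 CPM in WT and 0.372 and 0.463 CPM in OE. These untested and low genes are named after their values were seen. Of 16 such genes 12 were tested; 3 rose and 0 fell in KD (1 rose with library totals alone), where 11.0% of all genes were called higher and 10.4% lower. In OE 2 rose and 3 fell, where 16.9% of all genes were called higher and 19.5% lower. The list medians were 0.060 in KD, but -0.00995 without WT replicate 1, 0.106 without WT replicate 2 and 0.027 without KD replicate 3, and 0.081 in OE, but -0.017 with limma-voom. In KD 1 gene fell with DESeq2, with no filter beyond 1 count, or without WT replicate 1, OE replicate 1 or OE replicate 3. Lpl, the lipase that frees fatty acids at the vessel wall, had 226 ± 15.7 CPM in WT and 131 ± 4.04 in OE (log2 fold change -0.79, SE 0.064, edgeR adjusted p 5.20e-11). In KD it stood at 260 ± 7.51 CPM (0.20, SE 0.064, edgeR adjusted p 0.00482), a call lost with library totals alone (0.16, edgeR adjusted p 0.0936). Cav1, the main caveolar protein, rose in KD from 95.5 ± 3.71 to 134 ± 2.98 CPM (0.48, SE 0.037, edgeR adjusted p 2.58e-07) and fell in OE to 67.4 ± 3.47 CPM (-0.50, SE 0.053, edgeR adjusted p 4.04e-08).

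In the list of genes that carry signals from CD36 and CD47, all 16 were tested. In KD 2 rose and 4 fell, where 11.0% of all genes were called higher and 10.4% lower, with a median of -0.19 that was -0.067 without WT replicate 2. In OE 4 rose and 4 fell, where 16.9% of all genes were called higher and 19.5% lower, with a median of 0.051 that was 0.010 without WT replicate 3, 0.024 without OE replicate 3 and -0.011 with library totals alone. Gucy1b1, a subunit of the nitric oxide receptor guanylate cyclase, had 28 to 100 counts per WT library, 0 in every KD library and 137 to 188 in OE. In CPM it was low, at 1.16 ± 0.527 in WT and 3.27 ± 0.452 in OE. It was at least 17.7-fold lower in KD than in WT and at least 50-fold higher in OE than in KD, with KD set to 3 counts per library (edgeR adjusted p 7.76e-07 and 2.17e-09). Gucy1a1, Nos3 and Prkg1 of the same list, named after their values were seen, averaged 0.268, 0.481 and 0.365 CPM in WT. Mapk14, the p38α kinase, fell in KD from 126 ± 2.29 to 101.7 ± 0.280 CPM (log2 fold change -0.31, SE 0.015, edgeR adjusted p 9.66e-06) and stood at 129 ± 2.77 CPM in OE. Bnip3, a mitochondrial protein to which CD47 binds, rose in OE from 7.50 ± 0.819 to 21.1 ± 0.902 CPM (1.49, SE 0.10, edgeR adjusted p 5.56e-08) and stood at 7.11 ± 1.70 CPM in KD. Ubqln1, an ubiquilin that binds the CD47 tail, fell in OE from 228 ± 3.50 to 185 ± 3.60 CPM (-0.30, SE 0.021, edgeR adjusted p 2.77e-06) and rose in KD to 252 ± 5.14 CPM (0.15, SE 0.021, edgeR adjusted p 0.00949). The number that fell in OE was 2 without WT replicate 2, 1 without OE replicate 1 and 2 without OE replicate 2, and the number that rose in KD was 1 without KD replicate 2 and 0 with library totals alone. Kdr, among the genes of this list that fell in KD and in OE, is also in the endothelial marker list.

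**Figure D4:**
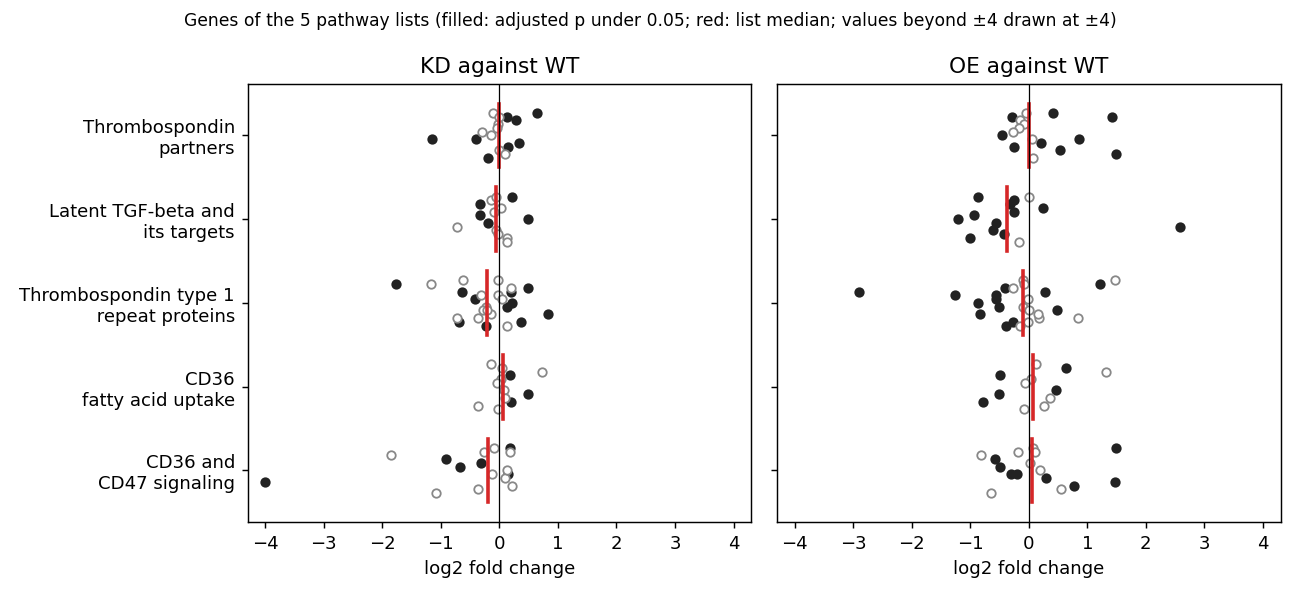
Log2 fold changes of the tested genes of the 5 lists in KD and in OE against WT, filled where the edgeR adjusted p was under 0.05, with list medians in red. In OE the latent TGF-β list lies mostly to the left (10 of 14 lower), and Gucy1b1, at 0 counts in KD, is drawn at the left edge of the KD panel.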

How the data were processed

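The table deposited by the authors holds raw counts per Ensembl gene for 9 poly-A RNA-seq libraries, judged from its whole-number values. The build was GRCm38 (mm10), per the submitters' processing notes; the aligner, counter and use of strand are not given in the sources used here. Of 55774 rows, repeats of a gene with identical counts were merged to 55487 genes; 0 value columns were left over. Counts were filtered with filterByExpr, scaled with TMM and fitted with edgeR 4.0.16 (robust quasi-likelihood, group as the only term, R 4.3.3), with Benjamini-Hochberg adjustment over 16955 genes and a threshold of 0.05. DESeq2 1.42.0 and limma-voom (limma 3.58.1) served as alternatives. SEs come from group SDs of log2 CPM (prior count 2). Lengths and positions are from GENCODE M21; sequences are from RefSeq (GRCm38.p6), which held 5 of the 6 genes. The procedure was tested on simulated data. Members and gene lists were chosen with earlier results of these data known. Besides the members, Zbtb46 and Comp, the genes named are the 2 with the smallest p per list and comparison and the 3 with the highest correlation to each tested member (above a mean of 5 CPM in any group); others are said to be chosen after their values were seen, apart from markers and overlapping genes. Other settings were tried, as given in the closing part: scalings, filters, tools, a fit of 2 groups, a replicate block, ribosomal RNA removed, window medians removed, and each library left out.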

Additional observations from a re-analysis of the deposited data

How the results depend on the processing

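Over 18 alternative settings with a test, 156 of 162 values for Thbs1, Thbs3 and Cd47 kept their call, 1 lost it, 5 gained it and 0 called values changed sign. The number of members called, 1 for KD and 2 for OE relative to WT and 1 between OE and KD, ran from 1 to 2 each time when 1 library was left out. Genes called then ran from 2551 to 4719, 5221 to 6445 and 6115 to 7605. Between OE and KD the members called were 2 with no filter beyond 1 count and 2 in a fit of the 2 groups alone, through Cd47. Scaling by totals only moved the percentage of calls that were higher from 51.4% to 35.8% in KD and from 46.5% to 31.6% in OE against WT. Removing window medians left Cd47 at -0.032 in OE against KD and 0.015 in KD. With the replicate number as a block, 3575, 6111 and 6970 genes were called in the 3 comparisons in that order, in place of 3621, 6174 and 7030, and the members called were 1, 2 and 1. Same-numbered libraries had correlations of deviations from -0.042 to 0.049, and 4 of 9 matched their own number best, so the numbers were not used as pairs. Thbs2, Thbs4 and Cd36, at 0 to 6 counts per library, passed no test that included them.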

Other observations

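Integrin subunits that bind thrombospondin 1, named here after their values were seen, were among the partner genes that differed between the modified lines. In OE against KD 6 of the 16 tested partners were called lower and 6 higher, where 22.1% of all genes were called lower and 19.4% higher. The integrin genes Itga4 and Itga9 of that list did not pass the filter on low counts. Itgb1, the common β1 subunit, had 733 ± 60.1 CPM in WT, 816 ± 9.27 in KD and 614 ± 22.5 in OE, and OE differed from KD by -0.41 on the log2 scale (SE 0.032, edgeR adjusted p 8.64e-07). Itga3, its α3 partner, had 608 ± 40.9, 664 ± 13.6 and 497 ± 5.56 CPM, with a difference of -0.42 (SE 0.019, edgeR adjusted p 9.54e-08). Itgav had 327 ± 47.3, 397 ± 2.03 and 294 ± 8.09 CPM, with a difference of -0.43 (SE 0.023, edgeR adjusted p 0.000793). Itga6 was higher than WT in both lines, at 63.4 ± 2.83, 80.04 ± 0.832 and 73.7 ± 0.525 CPM (0.34 in KD, edgeR adjusted p 2.12e-05, and 0.22 in OE, edgeR adjusted p 0.000853). Itgb3, whose protein pairs with αv, had 22.5 ± 3.56, 22.3 ± 0.336 and 21.3 ± 1.47 CPM and was called in no comparison. Fn1, the fibronectin gene, also chosen after its values were seen, fell in KD from 5560 ± 710 to 4208 ± 168 CPM (log2 fold change -0.40, SE 0.11, edgeR adjusted p 0.00406), and its change in OE was 0.064 (SE 0.11, edgeR adjusted p 0.585).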
